A study of Homo sapiens with 60 samples.

Results

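Histone genes whose transcripts can end in a poly(A) tail were followed in U2OS cells after graded activation of the integrated stress response. The 8 genes, taken as a list of symbols, were HIST2H2BE, HIST1H2BD, HIST1H2BK and HIST1H2BC (histone H2B), HIST1H2AC and HIST2H2AC (histone H2A), HIST1H4H (histone H4) and HIST1H1C (linker histone H1.2). Each had a mean estimated count of at least 5 per library, so all 8 of the 8 listed were used, out of 57665 genes in the table, and all 8 were among the 18040 genes that passed the filter on low counts.

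U2OS is an established human osteosarcoma line. All cells measured here carried Dmr-PERK, a stably expressed fusion of the eIF2α kinase domain of mouse PERK to the DmrB dimerization domain, so the untreated cells carried it too. The ligand AP20187, called dimerizer, brings 2 fusion molecules together and starts the kinase. Cells received dimerizer at 0.01, 0.2 or 3 nM and were collected at 1, 2, 4, 8, 16 and 24 h. This gave 18 treated groups of 3 libraries, and 6 untreated libraries formed 2 sets of 3 (set 1 and set 2). All 6 were labelled 0 h, so no treated time had an untreated group of its own. In values against untreated, dimerizer and further time in culture therefore cannot be told apart. The genotype was labelled WT throughout, the labels name 1 cell line without saying whether it is 1 clone, and nothing in them links either untreated set to a dose. They call the libraries replicates from wells of a plate and name no separate cultures beyond that, so a p-value here reflects only how far such wells differ, and that spread could be technical alone.

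Most histones of the core particle and the main linker histones are made from clustered genes that are transcribed in S phase. Their mRNAs usually carry no poly(A) tail and end just after a stem-loop that is bound by SLBP, which couples their processing and decay to DNA replication. Some of these clustered genes can also make a longer or spliced mRNA with a poly(A) tail, which is known from differentiating and non-dividing cells. Many H2A and H2B genes stand head to head and share 1 short stretch of promoter.

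The extraction label gives total RNA and a directional library kit, and whether poly(A) RNA was selected is not given in the sources used here. In the libraries, 50 of the 62 other replication-dependent histone genes found in the table had a mean estimated count under 5. The files count whole genes, so a tailed and a stem-loop transcript of 1 gene cannot be told apart, and the word polyadenylated rests on the list and not on these data.

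The stem-loop was searched for in the annotated transcripts of the 8 genes (GENCODE 29, GRCh38), because its place shows how much of each mRNA lies beyond the end of the S phase form. It is shown as DNA letters of the sense strand, 5′ to 3′, with the arms of the stem in capitals and the loop in lower case. The search asked for paired arms of 6 bases, the first opening with GG, around a loop of 4 bases opening with TT.
HIST2H2BE and HIST1H2AC: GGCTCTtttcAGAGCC
HIST1H2BD and HIST1H2BC: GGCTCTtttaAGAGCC
HIST1H4H: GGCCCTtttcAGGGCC

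HIST2H2BE (chr1:149884459-149886652, minus strand) has 1 annotated transcript, which is unspliced, and 1729 bases follow the stem-loop before its end, where a poly(A) signal is found. HIST1H2AC (chr6:26124145-26139116, plus strand) has 3 annotated transcripts, all spliced, and in the 2 that hold the stem-loop 1114 and 1128 bases follow it. HIST1H4H (chr6:26277609-26285638, minus strand) has 4 transcripts, and between 18 and 1655 bases follow the stem-loop in them. HIST1H2BD (chr6:26158146-26171349, plus strand) and HIST1H2BC (chr6:26114873-26123926, minus strand) each have 1 unspliced transcript with the stem-loop and 1 spliced transcript without it. The single transcripts of HIST1H2BK (chr6:27146418-27146798, minus strand), HIST1H1C (chr6:26055787-26056428, minus strand) and HIST2H2AC (chr1:149886975-149887364, plus strand) are 381, 642 and 390 bases long and hold neither stem-loop nor extension in that annotation. The annotation release used by the authors is not given in the sources used here, but the identifiers of the 8 genes and their versions matched GENCODE 29.

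Sequence shared with other histone genes limits how surely reads were assigned. For HIST1H2BK, 86.3% of the 31-base words of its transcript also occur in other genes, and for HIST2H2AC 50.6% do, mainly in HIST2H2AA3 and HIST2H2AA4, so the values of both are uncertain. The share was 15.4% for HIST1H2BD, 14.8% for HIST1H2BC and 12.4% for HIST2H2BE. It was 1.8% for HIST1H2AC, 1.08% for HIST1H4H and 0.817% for HIST1H1C. No exon of the 8 genes overlapped an exon of another gene.

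The start sites of HIST2H2BE and HIST2H2AC have 235 bases between them on chromosome 1, and those of HIST1H2BC and HIST1H2AC have 245 on chromosome 6. In each pair the H2B gene is on the minus strand and the H2A gene on the plus strand. The stretches between the start sites are shown because both genes of a pair are read from them, so they let the pairs be compared. They are given on the plus strand (RefSeq, GRCh38.p14), so the H2B gene begins to the left and the H2A gene to the right. Capitals mark the TATA box (TATAAA), the CCAAT box (CCAAT) and the octamer (ATTTGCAT), a site of POU factors in H2B promoters, each on either strand.
HIST2H2BE and HIST2H2AC, chr1:149886683-149886917: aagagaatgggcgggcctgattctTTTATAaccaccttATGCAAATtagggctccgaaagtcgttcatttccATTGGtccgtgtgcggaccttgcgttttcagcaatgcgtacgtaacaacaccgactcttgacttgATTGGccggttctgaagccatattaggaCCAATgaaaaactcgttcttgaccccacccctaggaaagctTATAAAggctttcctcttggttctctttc
HIST1H2BC and HIST1H2AC, chr6:26123927-26124171: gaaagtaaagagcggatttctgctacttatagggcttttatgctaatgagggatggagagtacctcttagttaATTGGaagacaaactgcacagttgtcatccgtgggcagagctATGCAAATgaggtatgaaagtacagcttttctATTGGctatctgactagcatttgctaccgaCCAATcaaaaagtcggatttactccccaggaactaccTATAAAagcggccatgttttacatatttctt

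The HIST2H2BE and HIST2H2AC stretch holds a TATA box 25 bases from its H2B end and another 29 bases from its H2A end, whereas the HIST1H2BC and HIST1H2AC stretch holds 1, which is 31 bases from the H2A end. Each distance is counted to the leftmost base of the match as shown. Distances from the H2B end and from the H2A end are therefore not measured alike. The octamer lies 39 bases from the H2B end in the first stretch and 116 bases from it in the second. Each stretch has 3 CCAAT boxes. Next, the 250 bases before 1 start site of each gene were searched (the first promoter listed in RefSeq, both strands). HIST1H2BD and HIST1H2BK each have 2 listed promoters, of which only the first was searched. The octamer was found for 5 of the 8 genes and in 1.66% of all 27305 promoters searched, 1 per gene symbol. The TATA box was found for 6 of the 8 and in 11.1% of all promoters, and the CCAAT box for 7 of the 8 and in 33% of all. The C/EBP-ATF element (TGATGNAA), a site of ATF4 dimers, was found for 0 of the 8 and in 3.19% of all promoters. The core of the cyclic AMP element (TGACGT) was found for 2 of the 8, HIST1H2BK and HIST1H4H, and in 7.42% of all. A match describes these letters only, and the promoters of a head to head pair overlap and were counted once for each gene.

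The 21 libraries of untreated set 2 and 3 nM held 20713981 to 28436445 estimated counts, and the 39 others held 5598803 to 10367667, so the 3 nM values are the more precise and depth differs with the dose. By depth, untreated set 1 thus stood with the lower doses and untreated set 2 with 3 nM. Whether these depth groups were also handled apart is not given in the sources used here. Between 3 nM and a lower dose, dose and depth group therefore cannot be told apart. All 7 known targets of the stress response checked (ATF4, DDIT3, TRIB3, ASNS, CHAC1, SESN2, DDIT4) were higher at 3 nM 24 h, where 41.1% of all genes were. Their log2 fold changes were 1.16 to 4.49, with a median of 2.83. At 0.2 nM 24 h all 7 were also higher, where 34.3% of all genes were, with a median of 2.64. At 0.01 nM 24 h 6 were higher and 1 lower, where 21% and 22.2% of all genes were. At 0.01 nM 1 h 1 was higher and 0 lower, where 12.6% and 15.5% of all genes were. The 6 mesenchymal and osteoblast markers had a summed level of 4873 to 5362 TPM in the untreated libraries and 1593 to 1625 TPM at 3 nM 24 h. COL1A2, one of them, was near 0, with at most 0.319 TPM in the group means given here. Summed levels of 4 epithelial markers, mostly KRT8, were 182 to 299.7 TPM in untreated libraries and 101 to 104 TPM at 3 nM 24 h. Over all libraries the 4 blood markers summed to at most 1.51 TPM and the 3 endothelial markers to at most 3.14 TPM. The part of these markers in the histone changes was not tested. In bulk libraries fewer cells of a kind and less RNA per cell cannot be told apart.

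The summed level of the 8 genes was lower at each later time at 3 nM, whereas at 0.01 nM it had come back close to the untreated level by 24 h. Their summed level was 146 ± 3.80 TPM (SD, n = 3) in untreated set 1 and 152 ± 5.31 TPM (SD, n = 3) in set 2. After 24 h it was 141 ± 7.63 TPM at 0.01 nM, 76.3 ± 5.96 TPM at 0.2 nM and 42.0 ± 0.603 TPM at 3 nM (SD, n = 3 each). At 3 nM the sum passed through 137 TPM at 1 h, 87.9 TPM at 4 h and 63.2 TPM at 8 h. At 0.2 nM it was 150.2 TPM at 1 h and lowest at 16 h, with 72.4 TPM. At 0.01 nM it was lowest at 8 h, with 118 TPM, and HIST1H2BK and HIST1H1C made up most of it in every group.

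**Figure D1:**
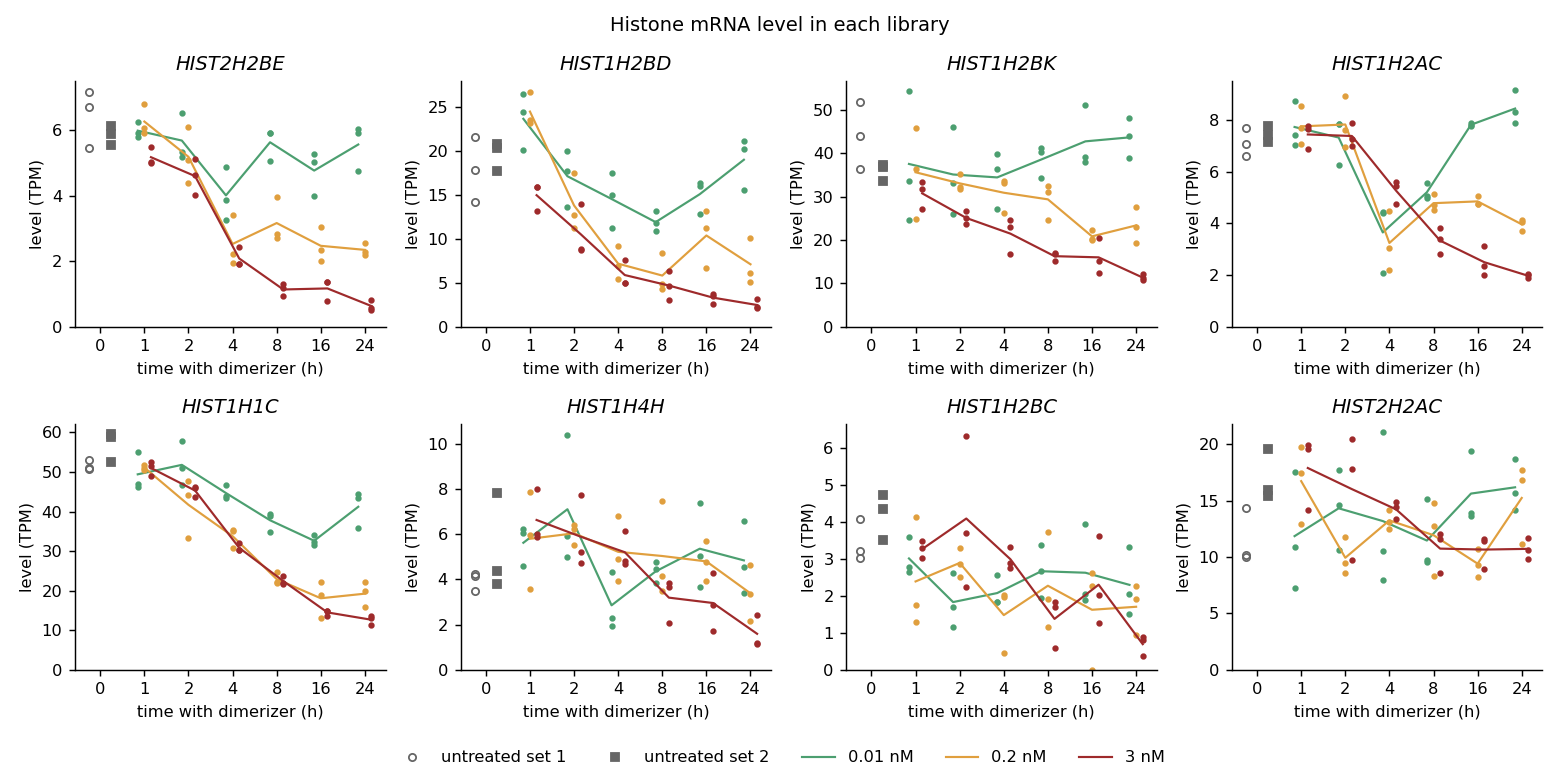
Level in TPM (linear axis from 0) of each of the 8 histone genes against the time with dimerizer in hours, with 1 point per library and a line through the mean of each dose. Open circles are untreated set 1 and filled squares untreated set 2; HIST2H2BE falls from 5.46 to 7.18 TPM in untreated libraries to 0.518 to 0.799 TPM at 3 nM 24 h, while HIST2H2AC at 3 nM 24 h (9.85 to 11.7 TPM) overlaps its untreated range (9.99 to 19.6 TPM).

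HIST2H2BE encodes an H2B of the chromosome 1 cluster and, of the 8 genes, followed the others most closely. Its level in the 6 untreated libraries ran from 5.46 to 7.18 TPM, with a median of 6.01 TPM. At 3 nM the libraries read 1.91, 1.92 and 2.43 TPM at 4 h and 0.566, 0.799 and 0.518 TPM at 24 h. At 24 h they read 2.20, 2.28 and 2.56 TPM with 0.2 nM and 4.75, 6.05 and 5.91 TPM with 0.01 nM. All libraries at 3 nM from 2 h on and at 0.2 nM from 4 h on lay under every untreated library, and those at 0.01 nM 24 h overlapped them. The log2 fold change was -3.34 ± 0.16 (SE) at 3 nM 24 h (edgeR adjusted p = 3.28e-26), which is 10.1-fold lower. It was -1.53 ± 0.16 at 0.2 nM 24 h (edgeR adjusted p = 1.55e-12) and -0.29 ± 0.14 at 0.01 nM 24 h (edgeR adjusted p = 0.0753). The last value was -0.47 with untreated set 1 alone as control and passed the test (edgeR adjusted p = 0.0158), and it was -0.11 with set 2 alone (edgeR adjusted p = 0.568).

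HIST1H2BD, an H2B gene of the chromosome 6 cluster, showed a decrease of like size. Untreated libraries read 14.2 to 21.6 TPM, with a median of 19.1 TPM. At 3 nM the libraries read 7.59, 5.02 and 4.99 TPM at 4 h and 3.11, 2.07 and 2.19 TPM at 24 h. At 0.2 nM 24 h they read 6.06, 10.1 and 5.11 TPM, and at 0.01 nM 24 h 20.2, 15.6 and 21.2 TPM. The 3 nM libraries were all under the untreated range from 2 h on and the 0.2 nM libraries from 4 h on. The log2 fold change at 3 nM 24 h was -3.35 ± 0.18 (SE; edgeR adjusted p = 1.78e-24), or 10.2-fold lower, and at 3 nM 4 h it was already -2.10 ± 0.15 (edgeR adjusted p = 2.31e-18). At 0.2 nM 1 h all 3 libraries, at 23.2 to 26.7 TPM, stood above the untreated ones, but the count test gave a log2 fold change of 0.16 ± 0.14 (edgeR adjusted p = 0.409).

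HIST1H2BK, the H2B gene with most shared sequence, had 33.5 to 52.0 TPM in untreated libraries, with a median of 37.2 TPM. At 3 nM the libraries read 24.7, 23.0 and 16.8 TPM at 4 h and 11.1, 10.8 and 12.1 TPM at 24 h. At 24 h they read 23.1, 19.4 and 27.7 TPM with 0.2 nM and 44.0, 39.0 and 48.1 TPM with 0.01 nM. All 3 nM libraries lay under the lowest untreated library at each time, and those at 0.01 nM overlapped the untreated range at each time. The log2 fold change was -1.93 ± 0.18 (SE) at 3 nM 24 h (edgeR adjusted p = 6.78e-15) and -0.85 ± 0.19 at 0.2 nM 24 h (edgeR adjusted p = 7.52e-05). The untreated sets themselves differed in this gene, with set 2 lower by a log2 fold change of -0.64 ± 0.18 (edgeR adjusted p = 0.0059), so the depth of its fall depends on the set chosen.

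HIST1H2BC, the partner of HIST1H2AC, had the fewest reads, with a mean of 10.7 estimated counts per library. Untreated libraries read 3.03 to 4.73 TPM, with a median of 3.79 TPM. At 24 h the libraries read 0.876, 0.819 and 0.384 TPM with 3 nM, 2.27, 1.92 and 0.930 TPM with 0.2 nM and 1.52, 3.32 and 2.06 TPM with 0.01 nM. All libraries at 3 nM and 0.2 nM 24 h lay under every untreated library, the former on 7, 5 and 3 estimated counts, and those at 0.01 nM 24 h overlapped them. At 0.01 nM the libraries at 2 h (1.16 to 2.63 TPM) and 4 h (1.83 to 2.56 TPM) lay under the untreated range. The log2 fold change at 0.01 nM 2 h was -1.11 ± 0.46 (SE; edgeR adjusted p = 0.0478) and did not pass with either untreated set alone. At 0.01 nM 4 h it was -0.94 ± 0.46 and did not pass (edgeR adjusted p = 0.0816). The log2 fold change was -2.53 ± 0.42 (SE) at 3 nM 24 h (edgeR adjusted p = 3.24e-07) and -1.26 ± 0.44 at 0.2 nM 24 h (edgeR adjusted p = 0.0108). Without replicate 3 of 0.2 nM 24 h the latter was -0.98 and did not pass.

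HIST1H2AC is the H2A gene with the long spliced extension, and the order of its levels by dose was not the same at 4 and 24 h. Untreated libraries read 6.64 to 7.80 TPM, with a median of 7.29 TPM. At 4 h they read 2.08, 4.46 and 4.42 TPM with 0.01 nM, 4.48, 2.21 and 3.05 TPM with 0.2 nM and 5.63, 5.45 and 4.75 TPM with 3 nM. All 9 of these libraries lay under the untreated range, and those at the highest dose lay above the others. At 24 h the libraries read 7.90, 9.16 and 8.31 TPM at 0.01 nM, 4.07, 4.13 and 3.70 TPM at 0.2 nM and 1.88, 2.02 and 2.00 TPM at 3 nM, so the highest dose was then the lowest of the doses. The libraries at 0.01 nM then all lay above the untreated range, and those at 0.2 and 3 nM all lay under it. The log2 fold changes at 4 h were -1.07 ± 0.16, -1.31 ± 0.16 and -0.53 ± 0.11 (SE) from the lowest to the highest dose, and all passed the test (edgeR adjusted p = 4.76e-08, 2.21e-10 and 3.24e-05). At 24 h they were 0.08 ± 0.12, -1.03 ± 0.14 and -1.97 ± 0.13 (edgeR adjusted p = 0.628, 6.81e-09 and 2.65e-20). The difference between doses at 4 h was not itself tested, and the 3 nM libraries were of the deeper group.

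HIST2H2AC, the H2A partner of HIST2H2BE, changed least. Untreated libraries read 9.99 to 19.6 TPM, with a median of 14.9 TPM, and set 2 (15.4 to 19.6 TPM) stood above set 1 (9.99 to 14.4 TPM). At 24 h the libraries read 9.85, 11.7 and 10.7 TPM with 3 nM, 17.8, 16.8 and 11.2 TPM with 0.2 nM and 14.2, 18.7 and 15.7 TPM with 0.01 nM. All these groups overlapped the untreated libraries. The log2 fold change at 3 nM 24 h was -0.52 ± 0.22 (SE; edgeR adjusted p = 0.0305), and with set 1 alone as control it was -0.41 (edgeR adjusted p = 0.204). The call was also lost without replicate 1 of either untreated set (-0.43 and -0.45) and without replicate 1 or 3 of 3 nM 24 h (-0.49 and -0.54).

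HIST1H1C encodes the linker histone H1.2, which binds DNA between core particles, and was the most deeply counted of the 8, with a mean of 149 estimated counts per library. Untreated libraries read 50.6 to 59.6 TPM, with a median of 52.8 TPM. At 3 nM the libraries read 30.2, 31.9 and 30.3 TPM at 4 h and 13.0, 11.2 and 13.7 TPM at 24 h. At 24 h they read 22.1, 19.9 and 15.7 TPM with 0.2 nM and 35.8, 44.5 and 43.3 TPM with 0.01 nM. Every library from 4 h on, at each dose, lay under the untreated range. The log2 fold changes at 24 h were -0.51 ± 0.09, -1.61 ± 0.10 and -2.19 ± 0.09 (SE) from the lowest to the highest dose (edgeR adjusted p = 3.13e-06, 1.23e-20 and 4.71e-30). At 0.01 nM its value was lower at 16 h, -0.80 ± 0.10 (edgeR adjusted p = 4.43e-10), than at 24 h, and it was the 1 gene of the 8 called at that dose at 24 h.

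HIST1H4H encodes histone H4 and had scattered values between replicates. Untreated libraries read 3.49 to 7.82 TPM, with a median of 4.19 TPM. At 3 nM the libraries read 6.15, 4.66 and 4.80 TPM at 4 h and 1.16, 2.44 and 1.18 TPM at 24 h. At 24 h they read 4.65, 2.15 and 3.34 TPM with 0.2 nM and 4.55, 6.58 and 3.39 TPM with 0.01 nM. Among all treated groups, 3 nM 24 h alone lay wholly under the untreated range. The log2 fold change there was -1.67 ± 0.21 (SE; edgeR adjusted p = 2.11e-10), against -0.40 ± 0.21 at 0.2 nM 24 h (edgeR adjusted p = 0.1). The latter passed the test without replicate 1 of 0.2 nM 24 h (-0.70) and without replicate 3 of untreated set 2 (-0.47).

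Counted over the genes, the calls against the untreated mean were almost all lower, and at 24 h they were more numerous at the higher doses (edgeR quasi-likelihood test, adjusted p under 0.05 over all 18040 genes). After 1 h at 0.01 nM 0 of the 8 were higher and 1 was lower, where 12.6% of all genes were called higher and 15.5% lower. The called gene was HIST1H1C (log2 fold change -0.24). After 1 h at 0.2 nM 1 was higher, HIST1H4H (0.49), and 1 lower, HIST1H1C (-0.26), against 16.2% and 19% of all genes. After 1 h at 3 nM 0 were higher and 4 lower, HIST1H1C, HIST1H2BD, HIST1H2BK and HIST2H2BE, at -0.31 to -0.62, against 22.6% and 21%. With untreated set 2 alone, HIST1H2BK (-0.30) and HIST2H2BE (-0.26) did not pass there. The call at 0.01 nM 1 h was lost without replicate 1 or 2 of either untreated set and without replicate 1 or 3 of its own group. The higher call at 0.2 nM 1 h was lost without replicate 2 or 3 of either untreated set and without replicate 1 of its own group, when the count lower became 2. After 1 h 0 genes were called lower at any dose when limma was run on log2(TPM + 1).

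At 4 h the counts were 0 higher and 4 lower at 0.01 nM (25.9% and 26.1% of all genes), 0 and 6 at 0.2 nM (30.1% and 29.2%), and 0 and 5 at 3 nM (34.9% and 31.9%). HIST2H2BE, HIST1H2BD, HIST1H2AC and HIST1H1C were among the lower genes at each dose, and HIST1H2BK joined them at 0.2 and 3 nM. HIST1H2BK did not pass at 0.2 nM 4 h with set 2 alone as control (-0.15), without replicate 3 of that group (-0.36) or without replicate 3 of untreated set 1 (-0.43). HIST1H2BC was the other gene called at 0.2 nM 4 h, and it did not pass without replicate 2 of that group (-1.02). HIST1H4H and HIST2H2AC were called at no dose at 4 h, with values of -0.02 to -0.30 and -0.12 to -0.19, although HIST1H4H passed at 3 nM 4 h without replicate 1 of that group (-0.45). Without replicate 3 of untreated set 1 the count lower at 0.01 nM 24 h was 2. At 24 h 0 were higher and 1 lower at 0.01 nM (21% and 22.2%), 0 and 6 at 0.2 nM (34.3% and 31.2%), and 0 and 8 at 3 nM (41.1% and 36%). The share lower at 24 h was thus above the share among all genes at the 2 higher doses and, at 0.01 nM, 1 of 8 against 22.2%. At 3 nM all 8 were also called lower and 0 higher at 8 h, where 34% and 38.5% of all genes were, and at 16 h, where 35.5% and 40.6% were. With set 1 alone as control HIST2H2AC did not pass at either time, nor HIST1H2BC at 16 h. The median log2 fold change of the 8 at 24 h was 0.01 at 0.01 nM, -1.14 at 0.2 nM and -2.08 at 3 nM, beside medians of 0.01, 0.04 and 0.05 over all genes tested.

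**Figure D2:**
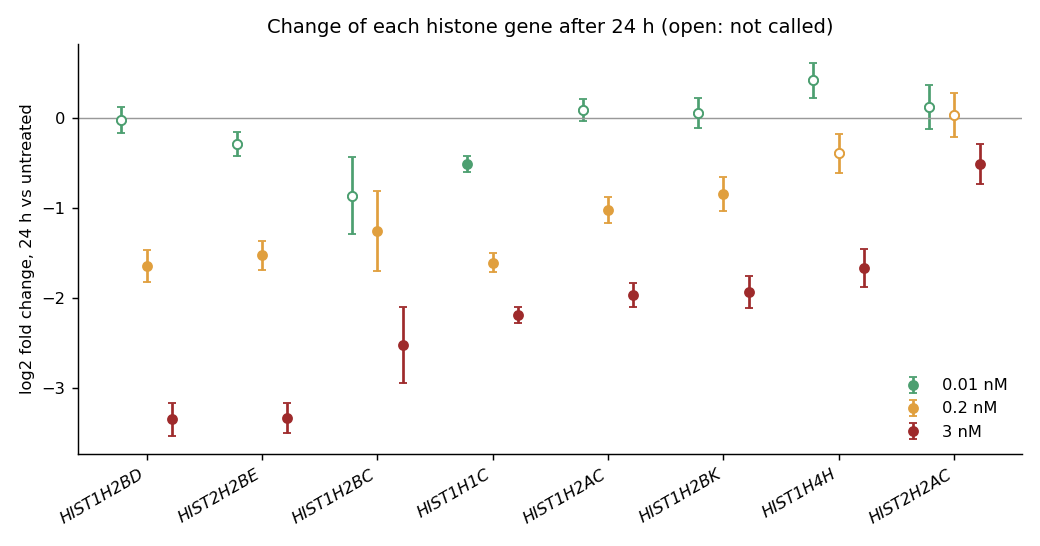
Log2 fold change against untreated (mean of both sets) of each of the 8 genes after 24 h at 0.01, 0.2 and 3 nM dimerizer, with bars of 1 SE from the edgeR fit; open points did not pass the test. The 3 nM points lie between -3.35 (HIST1H2BD) and -0.52 (HIST2H2AC), and at 0.01 nM HIST1H1C alone is filled.

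Within a dose, the time from 4 to 24 h split the doses, and this comparison uses no untreated library. At 0.01 nM 4 of the 8 rose and 0 fell, where 21.9% of all genes rose and 23.2% fell. They were HIST1H2AC (log2 fold change 1.15 ± 0.18, SE), HIST1H4H (0.72 ± 0.25), HIST1H2BD (0.67 ± 0.19) and HIST2H2BE (0.45 ± 0.18). Without replicate 2 of 0.01 nM 24 h the count was 2, and limma on log2(TPM + 1) also called 2. At 0.2 nM 0 rose and 1 fell, HIST1H1C at -0.79 ± 0.13, where 25.6% of all genes rose and 26.2% fell. At 3 nM 0 rose and 7 fell, at -0.91 to -2.05, where 34.5% of all genes rose and 33.4% fell. The gene not called was HIST2H2AC, at -0.40 ± 0.23 (edgeR adjusted p = 0.126).

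The difference between doses in this change was tested as an interaction. From 0.01 to 0.2 nM it passed for 3 of the 8 genes, where 15.2% of all genes had a change that was higher and 16% one that was lower at the higher dose. From 0.2 to 3 nM it passed for 6, where 19.5% and 16.7% of all genes did. In each of these cases the change of the histone gene was lower at the higher dose. In 4 of these tests the call was kept without any 1 library. HIST1H1C differed by -0.65 ± 0.18 (SE; edgeR adjusted p = 0.00279) in the first step. In the second step HIST1H2AC differed by -1.72 ± 0.25 (edgeR adjusted p = 8.19e-08), HIST2H2BE by -1.62 ± 0.31 (edgeR adjusted p = 1.8e-05) and HIST1H2BD by -1.26 ± 0.35 (edgeR adjusted p = 0.00278). For HIST1H2BK and HIST2H2AC neither interaction passed, with values of -0.70 and -0.53 for the former and -0.07 and -0.62 for the latter.

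Between neighbouring doses at 24 h, 0 of the 8 were higher and 6 lower at 0.2 than at 0.01 nM, where 26.9% of all genes were higher and 24.6% lower. Again 0 were higher and 6 lower at 3 than at 0.2 nM, where 30.6% and 25.5% of all genes were. They were in both cases HIST2H2BE, HIST1H2BD, HIST1H2BK, HIST1H2AC, HIST1H1C and HIST1H4H. HIST2H2BE stepped by -1.23 ± 0.19 and then -1.81 ± 0.23 (SE), whereas HIST1H1C stepped by -1.09 ± 0.13 and then -0.58 ± 0.13. Whether the 2 steps of a gene differ was not tested. HIST1H2BC and HIST2H2AC did not pass in either step, with the second at -1.27 ± 0.59 (edgeR adjusted p = 0.0624) and -0.55 ± 0.27 (edgeR adjusted p = 0.0772). Leaving out 1 library gave 5 to 6 lower in the first step and 6 to 8 in the second. Where all 8 were lower, these genes passed too, so their lack of a call there is not firm. Both dose steps share the 0.2 nM libraries. The second also compares libraries of different depth, so dose and depth group cannot be told apart there.

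The balance of the 2 genes in a head to head pair was followed as the share of the H2B gene. In the chromosome 1 pair, HIST2H2BE made up 30.97% ± 6.56 (SD, n = 6) of the summed TPM of HIST2H2BE and HIST2H2AC in untreated libraries. At 24 h its share was 25.6% ± 1.58 at 0.01 nM, 13.9% ± 4.14 at 0.2 nM and 5.49% ± 0.882 at 3 nM (SD, n = 3 each). The 3 nM libraries, at 4.64% to 6.40%, did not overlap the untreated ones, which ran from 23.8% to 41.3%. The exact permutation test over libraries (two-sided) gave adjusted p = 0.257, 0.0476 and 0.0476 from the lowest to the highest dose, the last 2 resting on a raw p of 0.0238, the smallest that 3 against 6 libraries allow. In the chromosome 6 pair, HIST1H2BC made up 34.1% ± 3.17 (SD, n = 6) in untreated libraries and 20.8% ± 5.30, 29.2% ± 8.15 and 25.6% ± 8.32 at 24 h from the lowest to the highest dose (SD, n = 3 each). There the exact permutation test gave adjusted p = 0.0476, 0.286 and 0.0714. When splits were counted by the absolute difference instead, a choice made after the values were seen, the last became 0.0357. The first again rested on the smallest raw p, 0.0238. HIST1H2BC had only 4, 9 and 5 estimated counts at 0.01 nM 24 h and 7, 5 and 3 at 3 nM 24 h, so these shares are imprecise. Its own change at 0.01 nM 24 h did not pass (edgeR adjusted p = 0.0956). The share was set up after the levels had been seen, and the reads of HIST2H2AC are partly shared with HIST2H2AA3 and HIST2H2AA4. The untreated sets differed in the first share, with 36.2% ± 4.77 in set 1 and 25.8% ± 1.91 in set 2 (SD, n = 3 each), and 3 libraries against the 3 of 1 set cannot reach a p under 0.1. From estimated counts, which are not scaled to length, HIST2H2BE made up 80.9% ± 3.92 (SD, n = 6) of its pair in untreated libraries. At 3 nM 24 h it made up 37.3% ± 4.07 (SD, n = 3). The size of the share thus depends on the annotated lengths, 2194 bases for HIST2H2BE and 390 for HIST2H2AC.

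**Figure D3:**
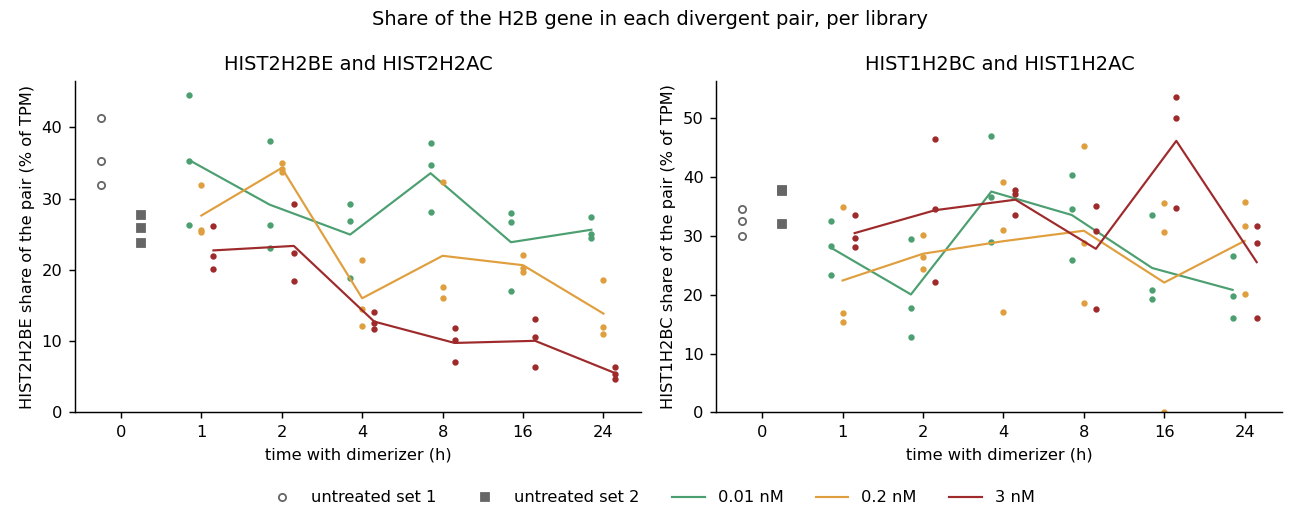
Share of the H2B gene in the summed TPM of each head to head pair, in percent, against the time with dimerizer in hours, with 1 point per library and a line through the mean of each dose. The HIST2H2BE share drops to 5.49% at 3 nM 24 h, from 30.97% over the untreated libraries, while the HIST1H2BC share shows no such drop with dose and at 24 h is lowest at 0.01 nM, with 20.8%. That last value rests on 4, 9 and 5 estimated counts of HIST1H2BC.

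The profiles of the 8 genes over the 20 group means (log2 CPM) were compared as a description, since all groups share libraries and scaling. The 28 pairs had Pearson r of 0.44 to 0.95, with a median of 0.76. HIST2H2BE and HIST1H2BD were closest, at 0.95, and HIST1H4H and HIST2H2AC were farthest, at 0.44. HIST2H2BE had an r of 0.97 with the mean of the other 7, and HIST2H2AC one of 0.54. The 5 tested genes outside the list with profiles most like the mean of the 8 were CNPY4, B4GAT1, TSPAN10, TPGS2 and TRIL, with r of 0.97 to 0.98 over the 20 groups. Their log2 fold changes at 3 nM 24 h were -2.26, -2.75, -2.49, -0.97 and -3.95.

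Other replication-dependent histone genes moved in part with the 8. Of the 11 that passed the filter, 1 was higher and 7 were lower at 3 nM 24 h, where 41.1% and 36% of all genes were. Their median log2 fold change was -1.12 against 0.05 over all genes. HIST2H4B (-2.11), HIST1H2AG (-1.94), HIST1H4I (-1.69), HIST2H2AA4 (-1.35), HIST1H2BJ (-1.18), HIST2H2BC (-1.12) and HIST2H3C (-0.73) were lower. HIST1H2BN was higher (0.74), and HIST4H4 (-0.34), HIST1H4J (-0.20) and HIST2H4A (-0.18) did not pass. Several of these share long stretches with a neighbour, so reads could be split between copies. Some share with the 8 genes themselves. HIST2H2BC shares 31-base words with HIST2H2BE, HIST2H2AA4 with HIST2H2AC, and HIST1H2BN with HIST1H2BK. HIST1H2BN and HIST1H2BJ share such words with HIST1H2BD and HIST1H2BC. Their values are therefore not fully separate from those of the 8, and the part of shared reads was not tested. At 0.01 nM 5 of the 11 were lower at 4 h, where 26.1% of all genes were. At that dose 4 were higher and 0 lower at 24 h, where 21% and 22.2% of all genes were. From 4 to 24 h 7 rose and 0 fell, where 21.9% and 23.2% of all genes did.

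The replacement histones are mostly made throughout the cell cycle, from genes with ordinary tailed mRNAs, although H2AFX can also make a stem-loop mRNA. Of 11 tested, 3 were higher and 7 lower at 3 nM 24 h, where 41.1% and 36% of all genes were. Their median log2 fold change was -0.57. From 0.01 to 3 nM 8, 9 and 7 of them were lower at 1 h, where 15.5%, 19% and 21% of all genes were. At 4 h 10, 10 and 9 of them were lower, where 26.1%, 29.2% and 31.9% of all genes were. Whether the replacement histones differ from the 8 genes was not tested. The lower ones were H2AFX (-1.20), which encodes the H2A variant marked at DNA breaks, H3F3A (-0.87), H2AFV (-0.65), H1FX (-0.63), H2AFY2 (-0.63), H2AFJ (-0.57) and CENPA (-0.42), the H3 variant of centromeres. The higher ones were H1F0 (0.44), a linker histone known from non-dividing cells, H2AFY (0.23) and H3F3B (0.22), and H2AFZ had 0.06 and did not pass. H3F3A and H3F3B encode the same protein, and their mRNAs moved in opposite directions.

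Factors of histone mRNA synthesis, processing and decay were mostly higher. Of 18 tested, 15 were higher and 0 lower at 3 nM 24 h, where 41.1% and 36% of all genes were. Their median log2 fold change was 0.57. The largest values belonged to ERI1 (1.65), an exonuclease that trims histone mRNA ends, ZNF473 (1.35), a part of the U7 machinery, and LSM11 (1.26), a subunit of the U7 particle. CDK9 was nearest to 0 (-0.02). SLBP, which binds the stem-loop, had 0.38 and was added for its role after its value was seen.

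**Figure D4:**
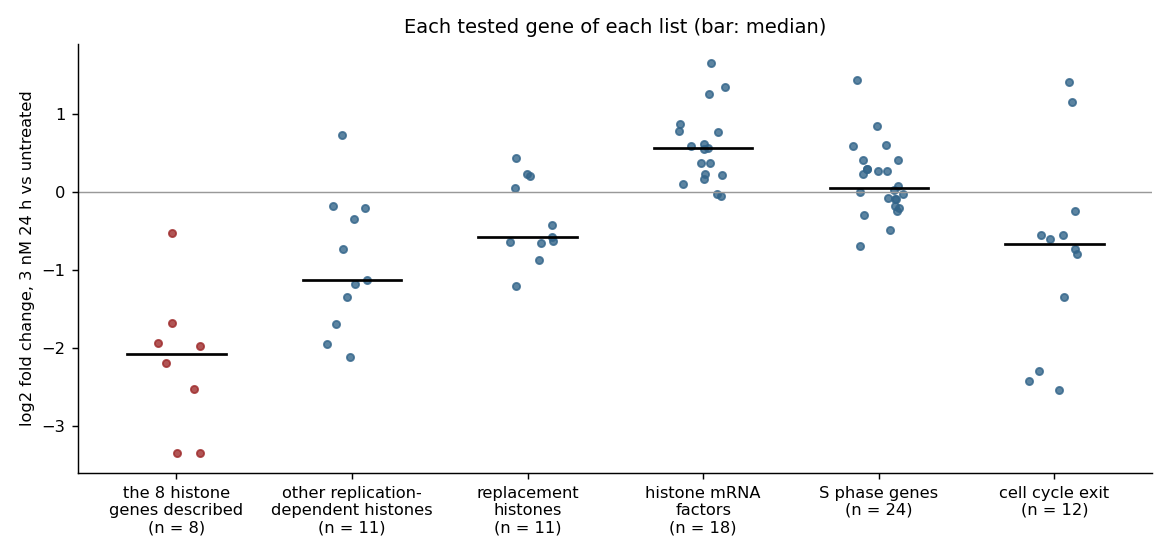
Log2 fold change at 3 nM 24 h against untreated for every tested gene of each list, with a bar at the median of the list and points spread sideways only for legibility. The 8 histone genes have a median of -2.08, the 11 other replication-dependent histone genes -1.12, the 11 replacement histones -0.57, the 18 histone mRNA factors 0.57, the 24 S phase genes 0.06 and the 12 cell cycle exit genes -0.66.

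S phase genes were mostly lower at 1 and 4 h. At 1 h 23, 19 and 21 of the 24 tested were lower from 0.01 to 3 nM, where 15.5%, 19% and 21% of all genes were. At 4 h 16, 19 and 16 were lower, where 26.1%, 29.2% and 31.9% of all genes were. At 3 nM 24 h 6 were lower and 11 higher, which is near the shares among all genes (36% and 41.1%), with a median log2 fold change of 0.06. CDC6 (1.44), which loads the replicative helicase, GINS3 (0.85), a subunit of that helicase, and PCNA (-0.69), the sliding clamp, had the largest values at 24 h, and UHRF1 (0.00) was nearest to 0. From 4 to 24 h at 3 nM 20 of the 24 rose and 1 fell, where 34.5% and 33.4% of all genes did. Of the 8 histone genes 7 fell. At 0.01 nM 21 of the 24 rose over the same times and 0 fell, where 21.9% and 23.2% of all genes did. Of the 8 histone genes 4 rose there. Whether the lists differ was not tested.

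Genes of cell cycle exit and proliferation were mostly lower. Of 12 tested, 2 were higher and 10 lower at 3 nM 24 h, where 41.1% and 36% of all genes were. The inhibitors CDKN1C (-2.53), CDKN2B (-2.41), CDKN2D (-1.34), CDKN1B (-0.60) and CDKN1A (-0.24) were lower, and so were the D cyclins CCND1 (-0.79) and CCND3 (-0.72). The antiproliferative gene BTG2 (-2.29) and the proliferation markers MKI67 (-0.54) and TOP2A (-0.54) were lower too. CCND2 (1.16) and BTG1 (1.42) were higher. CDKN1A had -0.01 with set 2 alone as control. The part of cell cycle position in the histone changes was not tested.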

How the data were processed

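RNA sequencing was read from 60 libraries of U2OS Dmr-PERK cells, and per the labels each group had 3 libraries. The middle dose, labelled 0.195 nM, is written 0.2 nM in the text and plots. Reads were quantified with Salmon 0.9.1 against GRCh38 after FastQC 0.11.5, per the submitters' processing notes, and the authors deposited estimated counts and TPM (scaled to transcript length and library size) per gene; the annotation release and the Salmon options are not given in the sources used here. Estimated counts were rounded to whole numbers, and 54.2% of those above 0 were already whole within 1e-06. All 60 libraries entered 1 fit with edgeR 4.0.16 (R 4.3.3): TMM scaling, a filter on low counts by group that kept 18040 of 57665 genes, a mean for each of the 20 groups (40 residual degrees of freedom) and quasi-likelihood F tests. Each treated group was set against the average of the 2 untreated sets, weighted equally. Benjamini-Hochberg adjustment ran over all genes tested within each contrast, the call threshold was an adjusted p of 0.05, and the SE of a log2 fold change was taken from the F statistic. Levels are given in the deposited TPM and tests on the deposited estimated counts, so the 2 can differ for a gene. Shares of a gene pair were compared with an exact permutation test over libraries (two-sided, adjusted over 6 comparisons).

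The 8 genes and the comparison lists were chosen with earlier results of these data known. Named were all 8 genes, every tested gene of a list of at most 12, otherwise the 3 largest changes and the smallest at 3 nM 24 h, and the 5 genes most alike in profile; SLBP was added after its value was seen. Alternatives were DESeq2 1.42.0, no filter on low counts, either untreated set alone, only the groups compared, a replicate block, limma 3.58.1 on log2(TPM + 1) and on log2(TPM + 0.1), and leaving out each library. The fit was tested on simulated data. No 2 libraries held identical values. Same-numbered replicates were not paired: in 0 of 36 comparisons between a treated group and an untreated set did every same-numbered pair deviate together with a correlation above 0.1.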

Additional observations from a re-analysis of the deposited data

Results flagged for a closer look

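The change from 4 to 24 h differed between doses, by a test of the interaction (edgeR, adjusted p under 0.05), for the following genes. Between 0.01 and 0.2 nM the difference (log2, higher dose minus lower) was -0.87 for HIST1H2AC, -0.65 for HIST1H1C and -1.09 for HIST1H4H. Between 0.2 and 3 nM it was -1.62 for HIST2H2BE, -1.26 for HIST1H2BD, -1.72 for HIST1H2AC, -0.48 for HIST1H1C, -0.99 for HIST1H4H and -2.19 for HIST1H2BC. The second step compares libraries of different depth.

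Several of these calls rest on single libraries. In the first step HIST1H2AC did not pass without replicate 1 of 0.01 nM 4 h (-0.61) or of 0.2 nM 4 h (-0.58). HIST1H4H did not pass there without replicate 2 of 0.01 nM 24 h (-0.80), replicate 1 of 0.2 nM 4 h (-0.97) or replicate 2 of 0.2 nM 24 h (-0.93). In the second step HIST1H4H did not pass without replicate 1 of 0.2 nM 24 h (-0.71), 3 nM 4 h (-0.85) or 3 nM 24 h (-0.88). HIST1H1C did not pass without replicate 2 of 0.2 nM 4 h (-0.43), replicate 1 or 2 of 0.2 nM 24 h (-0.41 and -0.44) or replicate 2 of 3 nM 24 h (-0.41). HIST1H2BC did not pass without replicate 2 of 0.2 nM 4 h (-1.82), replicate 1 or 2 of 0.2 nM 24 h (-2.05 and -2.03) or replicate 3 of 3 nM 24 h (-1.94).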

How the results depend on the processing

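The counts of genes called lower at 4 and 24 h for 0.2 and 3 nM stayed within 1.5 times under each alternative run, and no value changed sign among those that passed the test. The counts that moved were small ones. The 1 gene lower at 0.01 nM 1 h became 0 with DESeq2, without the filter, with untreated set 2, with only the groups compared and with limma at either pseudocount. The 1 gene higher at 0.2 nM 1 h became 0 under those 6 alternatives and with untreated set 1. The 1 gene lower at 0.2 nM 1 h became 2 with set 1, 0 with set 2 and 0 with limma at either pseudocount. The 4 lower at 3 nM 1 h became 2 with set 2 and 0 with limma at either pseudocount, the 1 lower at 0.01 nM 24 h became 2 with set 1, and the 4 that rose from 4 to 24 h at 0.01 nM became 2 and 1 with limma on log2(TPM + 1) and log2(TPM + 0.1). The cause was not tested.

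Leaving out 1 library gave 0 to 1 lower at 0.01 nM 1 h, 0 to 1 higher and 1 to 2 lower at 0.2 nM 1 h, 0 to 1 higher at 3 nM 1 h, 0 to 1 higher and 1 to 2 lower at 0.01 nM 24 h, and 2 to 4 higher from 4 to 24 h at 0.01 nM. The H2B share of HIST1H2BC and HIST1H2AC at 3 nM 24 h, lower by -8.57 percentage points, passed when permuted splits were counted by the absolute difference, and computed from estimated counts the 6 pair comparisons stayed on the same side of the threshold; both were chosen after seeing the data. With a replicate block, all 28 counts and all 88 single values kept their call, and the 8 lower at 3 nM 24 h stayed 8. Depth limits HIST1H2BC most, with a mean of 10.7 estimated counts per library.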
